A study of Mus musculus with 6 samples.

Results

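The genes described here encode 9 ligand-sensing transcription factors of the liver: the xenobiotic receptors PXR (Nr1i2), CAR (Nr1i3) and AhR (Ahr), their partner RXR-alpha (Rxra), the lipid receptors PPAR-gamma (Pparg) and PPAR-delta (Ppard), and the hormone receptors TR-beta (Thrb), GR (Nr3c1) and ER-alpha (Esr1). They were taken by gene symbol from a table of 32212 rows, and all 9 were found and passed the filter on low counts. Liver RNA came from male C57BL/6 mice aged 2 yr on normal chow, 3 WT mice and 3 CgA-KO mice, which lack Chromogranin A, the prohormone encoded by Chga. Each mouse gave 1 poly(A)-selected library, and the labels restrict the knockout to no tissue and give neither the hour of collection nor the feeding state.

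All of these receptors except AhR belong to the nuclear receptor family, in which a zinc-finger domain reads short DNA hexamers and a second domain binds a small lipophilic ligand. PXR and CAR respond to drugs and bile acids and switch on cytochrome P450 genes after pairing with RXR, which is also the partner of the PPARs and the thyroid hormone receptors. GR and ER-alpha bind DNA as pairs of the same receptor, and in the absence of hormone GR is held in the cytosol by the chaperone HSP90. AhR is a basic helix-loop-helix protein that pairs with ARNT after binding planar aromatic compounds. In liver the activity of these proteins depends on their ligands and on their location in the cell as well as on the amount of their transcripts, which is what was measured here.

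Most of these receptors read variants of the hexamer AGGTCA, so the 250 bases upstream of their start sites were searched for it. RefSeq promoter entries (GRCm38.p6) were found for 7 of the 9 receptors, with 12 start sites in all. AGGTCA on either strand occurred in 4 of these 12 windows (Rxra, Pparg at a pair of start sites, and Thrb), against 14.0% of 32851 windows of the same length over all entries. The variant AGTTCA occurred in 1 window (Thrb, 11.8% of all windows), TGTTCT, the hexamer read by GR, in 1 (Thrb, 16.1%), and GCGTG, the core read by AhR with ARNT, in 3 (28.2%). The windows of Nr1i3, which differed most between the genotypes, of Rxra at the downstream start site, which holds a pair of hexamers, and of Cyp3a11, the usual reference target of PXR, are printed 5′ to 3′ on the strand of the gene. Capitals mark AGGTCA or AGTTCA on either strand, and a match is a description of letters, not of binding.
Nr1i3 (chr1:171213720-171213969, plus strand): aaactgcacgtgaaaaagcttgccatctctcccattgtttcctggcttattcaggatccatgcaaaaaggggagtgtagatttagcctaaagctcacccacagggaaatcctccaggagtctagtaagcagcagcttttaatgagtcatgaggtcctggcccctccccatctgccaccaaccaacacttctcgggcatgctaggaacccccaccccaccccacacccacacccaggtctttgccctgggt
Rxra (chr2:27709042-27709291, plus strand): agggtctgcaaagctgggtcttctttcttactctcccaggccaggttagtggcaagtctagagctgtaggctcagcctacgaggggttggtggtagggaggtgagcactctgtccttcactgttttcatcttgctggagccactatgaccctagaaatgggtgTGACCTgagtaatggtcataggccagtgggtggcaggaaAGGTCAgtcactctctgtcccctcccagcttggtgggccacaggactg
Cyp3a11 (chr5:145879855-145880104, minus strand): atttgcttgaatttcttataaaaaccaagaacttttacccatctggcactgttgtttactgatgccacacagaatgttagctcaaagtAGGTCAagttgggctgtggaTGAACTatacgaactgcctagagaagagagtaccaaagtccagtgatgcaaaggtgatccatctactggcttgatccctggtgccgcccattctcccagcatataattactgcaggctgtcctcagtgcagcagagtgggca

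Total counts per library ran from 10558616 to 31087453, and WT replicate 1 was the shallowest. TMM factors ran from 0.756 in WT replicate 2, which stood apart, to 1.12. A gene with 0 counts could have been present at up to 0.0951 CPM (counts per 1000000, with library sizes adjusted by TMM, the trimmed mean of M-values method) in CgA-KO replicate 2, at up to 0.128 CPM in WT replicate 2, the deepest library, and at up to 0.269 CPM in the shallowest, where 3 counts are the limit for counting error only. Chga itself had 0 counts in all 6 libraries, so it does not check the genotype labels. The receptors were well above this floor, with between 87 (Ppard) and 32346 (Nr1i3) counts in a library. Of 9 hepatocyte markers measured, edgeR called 0 different (1 by DESeq2 and 1 at an unadjusted p under 0.05), with summed levels of 60686 to 98754 CPM in WT and 53079 to 86666 CPM in CgA-KO livers. Markers of Kupffer cells and macrophages summed to 149 to 405 CPM in WT and 1546 to 2057 CPM in CgA-KO livers, and 9 of the 10 were called higher. Markers of T and NK cells (7 of 10 called higher) summed to 4.47 to 18.9 and 40.4 to 240.1 CPM, those of neutrophils (4 of 7) to 8.60 to 15.6 and 50.2 to 248 CPM, and those of stellate cells (4 of 10) to 157 to 212 and 292 to 445 CPM in WT and CgA-KO livers. Sinusoidal endothelial markers gave 1 higher and 1 lower call among 10, and edgeR called 0 of 6 bile duct, 0 of 8 B cell and 0 of 3 adipocyte markers tested (at an unadjusted p under 0.05, 1 of each, and by DESeq2 1 B cell marker). No marker of hepatocytes, macrophages, T and NK cells, neutrophils or stellate cells was at 0 in every library. The libraries hold whole liver, in which fewer cells of a type and less RNA per cell cannot be told apart. The part of these shifts in the values of the receptors, their targets and the other genes described below was not tested.

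To set the receptors side by side, levels were expressed per kilobase of exon. In WT livers Nr1i3 was the most abundant at 239 ± 89.1 CPM per kb (SD, n = 3), followed by Rxra (61.9 ± 4.74) and Nr1i2 (34.2 ± 9.47). Nr3c1 (8.13 ± 0.628 CPM per kb) and Ahr (7.0 ± 0.444) came next, with ranges that overlapped over the livers. Pparg (4.38 ± 0.674 CPM per kb) and Thrb (3.63 ± 0.329) also overlapped, as did Ppard (0.976 ± 0.110) and Esr1 (0.890 ± 0.161) at the bottom. The other neighbours in this order did not overlap. CgA-KO livers gave the same order, from 103 ± 23.7 CPM per kb for Nr1i3 to 0.925 ± 0.138 for Esr1, and there only Pparg and Thrb overlapped. The length used is the union of annotated exons, and with the longest transcript instead only Ppard and Esr1 overlapped in WT.

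**Figure D1:**
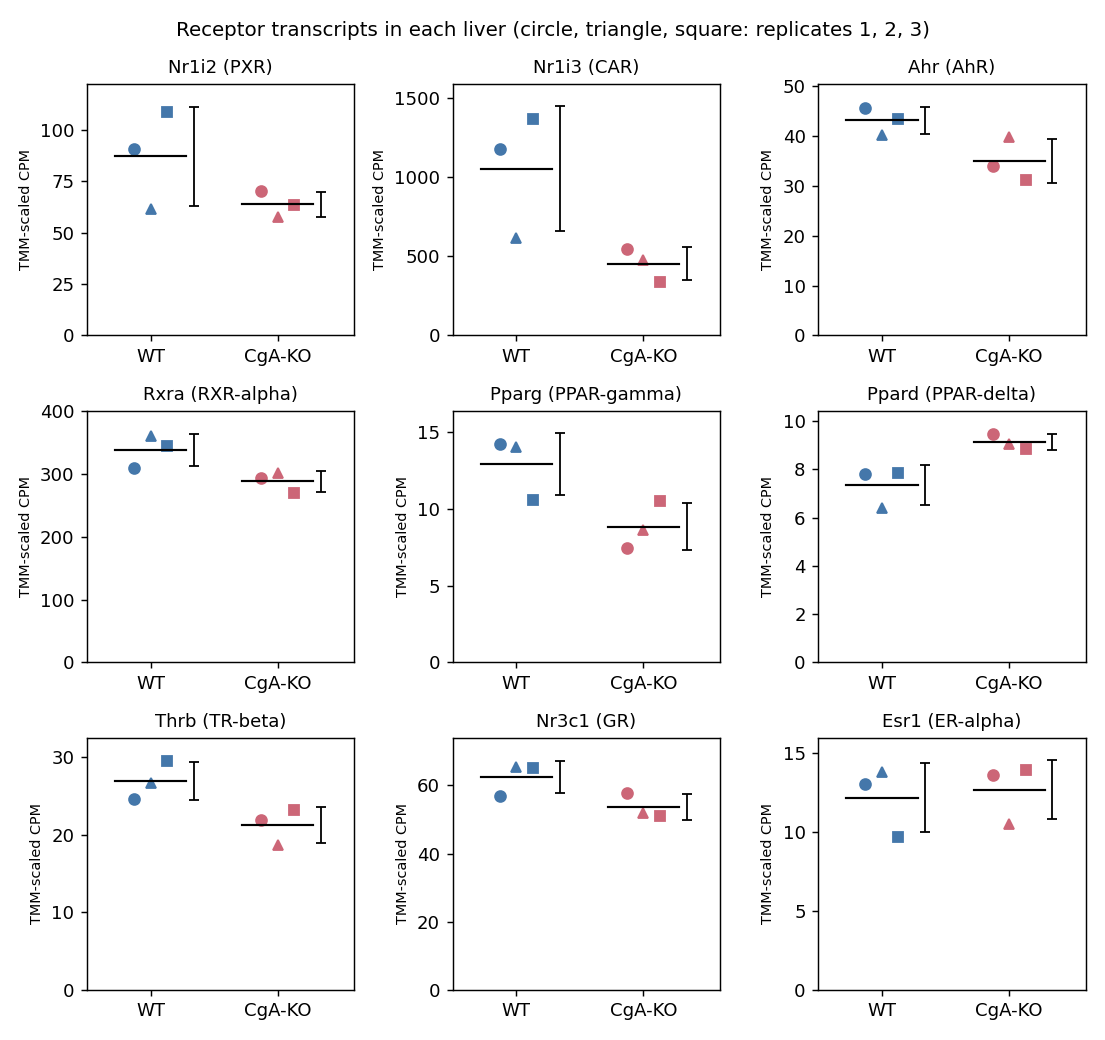
TMM-scaled CPM of the 9 receptor transcripts in each liver, on linear axes from 0, with WT in blue and CgA-KO in red. The horizontal line is the mean and the bar beside it is 1 SD over 3 livers. The genotypes do not overlap for Nr1i3, Ahr, Rxra, Pparg, Ppard and Thrb, and overlap for Nr1i2, Nr3c1 and Esr1.

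The comparison of CgA-KO with WT asked whether the knockout changed the receptors' transcripts. It found 1 of the 9 called by edgeR's quasi-likelihood test at an adjusted p-value under 0.05, Nr1i3, which was lower in CgA-KO livers, and 0 called higher. At an unadjusted p under 0.05 there were 2, Nr1i3 and Pparg, both with negative fold changes, beside 4032 of the 13867 genes tested. Over all 13867 genes tested, 12.4% were called, 8.60% higher and 3.84% lower, so 1 of 9 is close to the background. DESeq2 and limma-voom also called 1, Nr1i3. The median log2 change of the 9 was -0.30, against -0.01 over all genes tested, with 7 of the 9 below 0. With scaling by library size alone these medians were -0.04 and 0.26, with 5 of the 9 below 0. In 6 of the 9 all CgA-KO livers lay on one side of all WT livers, 5 of them lower, a separation seen in 33.6% of the genes tested.

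**Figure D2:**
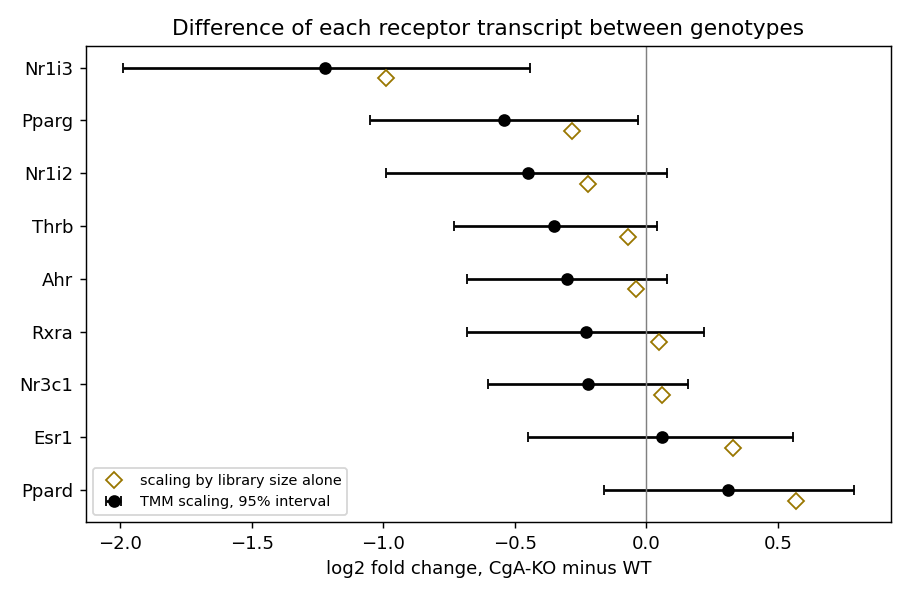
Log2 change (CgA-KO minus WT) of each receptor transcript, with circles and 95% intervals from the edgeR fit with TMM scaling and diamonds for scaling by library size alone. Only the intervals of Nr1i3 (-1.99 to -0.44) and Pparg (-1.05 to -0.03) exclude 0, and the diamonds of Rxra (0.05) and Nr3c1 (0.06) lie on the other side of 0 from their circles.

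Nr1i3 encodes CAR, a receptor that is largely restricted to hepatocytes and drives phenobarbital-type induction of Cyp2b genes. The gene lies on chromosome 1 of GRCm38 from 171213970 to 171220701 on the plus strand (ENSMUSG00000005677), downstream of the window printed above. It stood at 1179, 614 and 1370.0 CPM in WT replicates 1, 2 and 3 and at 543, 479 and 338 CPM in CgA-KO replicates 1, 2 and 3. Every CgA-KO liver was below every WT liver, but WT replicate 2 lay much nearer to the CgA-KO livers than to the other WT livers, and the WT livers spanned 2.23-fold. The means were 1054 ± 393 and 453 ± 105 CPM (SD, n = 3 each). On the log2 scale (log2 of the CgA-KO level over the WT level) this was a change of -1.22 (SE 0.341, edgeR adjusted p = 0.0496), or 0.430-fold with a 95% interval of 0.252 to 0.735. DESeq2 gave -1.23 (adjusted p = 0.00165). The exact two-sided permutation test gave p = 0.1, the lowest value possible with 3 livers in each group. The call sits at its threshold: edgeR no longer made it without WT replicate 1 (adjusted p = 0.0829), WT replicate 3 (0.191), or CgA-KO replicate 1 (0.101), 2 (0.124) or 3 (0.147), and made it without WT replicate 2 (log2 change -1.49, adjusted p = 0.0272). With scaling by library size alone the log2 change was -0.99 and the adjusted p from edgeR was 0.137. Exons annotated to Nr1i3 share 3304 bases with Tomm40l on the opposite strand, whose own counts were between 94 and 221 per library.

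By root-mean-square distance of log2 CPM, centred on each gene's mean over the 6 libraries, the closest profiles to Nr1i3 among 9936 genes were BC024386 (0.114) and Ggnbp1 (0.126). BC024386 was at 611, 384 and 712 CPM in WT and 306, 238 and 196 CPM in CgA-KO livers, and Ggnbp1 at 23.0, 12.7 and 27.9 CPM and 13.5, 10.5 and 8.02 CPM, where the genotypes overlapped. Both followed Nr1i3 in having their lowest WT value in replicate 2 and their lowest CgA-KO value in replicate 3, and this likeness is a description over 6 libraries that share these genotypes.

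Nr1i2, on chromosome 16 from 38248323 to 38294824, encodes PXR, which responds to a wide range of drugs and steroids. It was at 90.9, 61.6 and 109 CPM in WT and at 70.3, 57.7 and 63.3 CPM in CgA-KO livers. The genotypes overlapped, since WT replicate 2 was below CgA-KO replicates 1 and 3. Its log2 change of -0.45 was not called (edgeR adjusted p = 0.240, exact permutation p = 0.3), and the 95% interval ran from 0.505- to 1.06-fold. Without WT replicate 2, the library in which Nr1i3 was also low, the value was -0.66 (adjusted p = 0.0808).

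Ahr lies on chromosome 12 from 35497974 to 35535038. It measured 45.7, 40.2 and 43.5 CPM in WT and 34, 39.9 and 31.2 CPM in CgA-KO livers. The closest pair, WT replicate 2 and CgA-KO replicate 2, nearly touched. Its log2 change was -0.30 (edgeR adjusted p = 0.273), with an interval of 0.625- to 1.06-fold.

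Rxra, the gene of the common partner, lies on chromosome 2 from 27676440 to 27762957. It measured 309.5, 360.0 and 345 CPM in WT and 294, 301 and 269 CPM in CgA-KO livers. It was steady within each genotype, with WT livers spanning 1.16-fold and no overlap. The log2 change of -0.23 was not called (edgeR adjusted p = 0.484), with an interval of 0.624- to 1.16-fold, and it became 0.05 with scaling by library size alone. Rxrb, another RXR gene, overlapped between the genotypes, at -0.08 on the log2 scale (edgeR adjusted p = 0.798).

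Pparg, on chromosome 6 from 115360951 to 115490399, encodes the receptor that drives fat storage in adipocytes and is also used by macrophages and steatotic hepatocytes. It was at 14.2, 14.0 and 10.6 CPM in WT and at 7.43, 8.59 and 10.5 CPM in CgA-KO livers. WT replicate 3 and CgA-KO replicate 3 lay next to each other without overlap. The log2 change was -0.54 (0.686-fold, interval 0.482 to 0.976), with an unadjusted p of 0.0390 and an edgeR adjusted p of 0.149.

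Ppard, on chromosome 17 from 28232700 to 28301474, encodes a broadly expressed receptor of fatty acids. It was at 7.79, 6.38 and 7.84 CPM in WT and at 9.47, 9.04 and 8.83 CPM in CgA-KO livers, the only receptor of the 9 for which every CgA-KO liver lay above every WT liver. The log2 change of 0.31 was not called (edgeR adjusted p = 0.357), with an interval of 0.897- to 1.72-fold.

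Thrb, on chromosome 14 from 17660261 to 18038090, encodes the main thyroid hormone receptor of hepatocytes. It was at 24.6, 26.6 and 29.5 CPM in WT and at 21.9, 18.6 and 23.1 CPM in CgA-KO livers. All CgA-KO livers were below all WT livers, and the log2 change was -0.35 (edgeR adjusted p = 0.218, interval 0.602- to 1.03-fold).

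Nr3c1, on chromosome 18 from 39410545 to 39519421, encodes the glucocorticoid receptor. It was at 56.9, 65.5 and 65.0 CPM in WT and at 57.9, 51.9 and 51.1 CPM in CgA-KO livers. WT replicate 1 lay below CgA-KO replicate 1, and the log2 change was -0.22 (edgeR adjusted p = 0.422, interval 0.661- to 1.12-fold) with TMM scaling and 0.06 with library size alone.

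Esr1, on chromosome 10 from 4611593 to 5005614, encodes the main estrogen receptor of liver. It was at 13, 13.8 and 9.66 CPM in WT and at 13.6, 10.5 and 13.9 CPM in CgA-KO livers, with each genotype holding 1 low liver. The log2 change of 0.06 (edgeR adjusted p = 0.898) had an interval of 0.734- to 1.47-fold, and it was -0.09 without WT replicate 3. For 7 of the 9 receptors the 95% interval lay within a 2-fold change in either direction, the exceptions being Nr1i3 and Pparg.

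Genes that each receptor is known to regulate were listed and read in the same fit. The 8 target lists hold 112 distinct genes, of which 105 were tested and 29 (27.6%) were called, 17 higher and 12 lower, beside the 12.4% of all genes tested. The lists were chosen with earlier results of these data known, so their shares are no test against the share of all genes. These counts describe the lists, whose genes answer to other regulators as well.

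Of the 15 PXR targets, edgeR called 4 higher and 0 lower (2 lower by DESeq2 and 2 at an unadjusted p under 0.05), with a median log2 change of 0.18. Cyp3a11, the main drug-metabolizing P450 of the list, was at 4597, 6837 and 5034 CPM in WT and at 4269.7, 5568 and 5564 CPM in CgA-KO livers, with partial overlap and a log2 change of -0.10 (edgeR adjusted p = 0.864, interval 0.589- to 1.49-fold). The called genes were Cyp2b10, the uptake transporter Slco1a4, and Cyp3a44 and Cyp3a41a, which are P450 genes known for higher expression in female liver. Slco1a4 rose from 54.8 ± 17.1 to 184 ± 31.6 CPM (log2 change 1.74, edgeR adjusted p = 0.00708). Cyp3a41a had 0, 5 and 8 counts in WT and 55, 83 and 74 in CgA-KO livers, with a log2 change of 3.72 that was 4.35 without WT replicate 3. Cyp3a44 rested on 2, 3 and 3 counts in WT and 43, 52 and 21 counts in CgA-KO livers, and its edgeR adjusted p was 0.0528 without WT replicate 3. Cyp3a and Cyp2b genes have close paralogs among which quantification could have split reads.

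Of 16 CAR targets tested, 1 was called higher and 1 lower, 12.5% beside the background of 12.4%. DESeq2 called 2 higher and 2 lower, and at an unadjusted p under 0.05 by edgeR 4 were higher and 2 lower. The median log2 change was 0.27, with 11 genes above 0 and 5 below. Cyp2b10, the gene most used to read CAR activity, was at 4.48, 6.30 and 7.71 CPM in WT and at 40.3, 48.6 and 17.1 CPM in CgA-KO livers. Every CgA-KO liver was above every WT liver, opposite in direction to Nr1i3, and CgA-KO replicate 3 was the lowest of its genotype for both genes. For Cyp2b10 the log2 change was 2.50 (SE 0.385, edgeR adjusted p = 0.00703), and without WT replicate 2 the adjusted p was 0.0546. Alas1, which encodes the first enzyme of heme synthesis, was at 698, 442 and 966 CPM in WT and at 259, 369.6 and 330.1 CPM in CgA-KO livers. Like Nr1i3 it was lowest among WT livers in replicate 2, and its log2 change was -1.14 (edgeR adjusted p = 0.0474). In the fits that left out a library the call of Alas1 held only without WT replicate 2, with adjusted p-values of 0.0676 to 0.193 in the others.

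**Figure D3:**
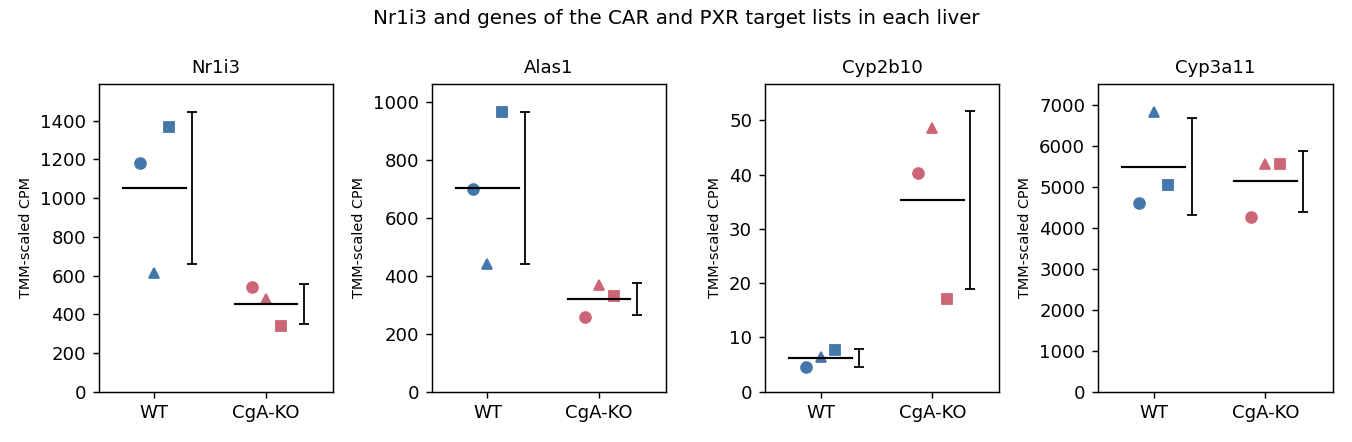
TMM-scaled CPM of Nr1i3, Alas1, Cyp2b10 and Cyp3a11 in each liver, on linear axes from 0, with the mean as a line and 1 SD over 3 livers as a bar (circle, triangle and square for replicates 1, 2 and 3). Nr1i3 and Alas1 are lower and Cyp2b10 is higher in every CgA-KO liver, and Cyp3a11 runs from 4597 to 6837 CPM in WT and from 4269.7 to 5568 CPM in CgA-KO livers, with partial overlap.

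Of 11 AhR targets tested, 2 were called higher and 1 lower. Cyp1a1, the most inducible of them, had 5, 32 and 32 counts in WT and 3, 5 and 23 in CgA-KO livers and was not called (log2 change -1.31, edgeR adjusted p = 0.314, and -2.78 and 0.0617 without CgA-KO replicate 3). Lpcat2, a phospholipid acyltransferase that inflammatory cells also use, rose from 2.07 ± 1.16 to 11 ± 1.56 CPM (log2 change 2.46, edgeR adjusted p = 0.00703), in the same livers in which macrophage markers were higher. Ugt1a6a, a glucuronosyltransferase, fell by 0.85 on the log2 scale (edgeR adjusted p = 0.0393) and was not called without WT replicate 2 (0.0897) or 3 (0.137) or without CgA-KO replicate 1 (0.150) or 3 (0.118).

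Of the 18 thyroid hormone targets, edgeR called 7 (38.9%) lower and 0 higher (0 by DESeq2 and 1 at an unadjusted p under 0.05), where 3.84% of all genes tested were called lower, and the median log2 change was -0.45. Thrsp, a lipogenic protein named for its response to thyroid hormone, was at 105, 238 and 201 CPM in WT and at 27.1, 23.4 and 37.9 CPM in CgA-KO livers. The groups were far apart, with a log2 change of -2.62 (SE 0.338, edgeR adjusted p = 0.00443). Fasn, fatty acid synthase, fell from 217 ± 45.8 to 64.8 ± 10.7 CPM (log2 change -1.74, edgeR adjusted p = 0.00498), and Me1, malic enzyme, from 155 ± 42.9 to 45.2 ± 8.86 CPM (-1.78, 0.00603). Leaving out any 1 of the 6 libraries did not end these 3 calls. The other 4, named after their values were seen, were the lipogenic genes Srebf1 and Acaca, the bile acid enzyme Cyp7a1, and Slc17a2, and insulin and sterols are known to act on several of these genes too. Each of these 4 lost its call without WT replicate 3 (adjusted p of 0.179 for Acaca, 0.0553 for Srebf1, 0.0691 for Cyp7a1 and 0.0778 for Slc17a2 by edgeR), Acaca lost it also in every other fit without a library but that lacking WT replicate 1, Srebf1 without WT replicate 2, and Slc17a2 without CgA-KO replicate 1 or 2. Dio1, the deiodinase used as a readout of thyroid hormone in liver and also singled out after its values were seen, was at 85.5, 118 and 86.9 CPM in WT and at 6.78, 5.52 and 50.4 CPM in CgA-KO livers. CgA-KO replicate 3 stood apart from the other CgA-KO livers, and the log2 change of -2.21 was not called (edgeR adjusted p = 0.0871). Without CgA-KO replicate 3 the log2 change of Dio1 was -3.95 and edgeR called it (adjusted p = 0.00236), as did limma-voom with all libraries (adjusted p = 0.0246). Other thyroid hormone targets of the list, also picked after their values were seen, did not share this fall. Hr (log2 change 0.81, edgeR adjusted p = 0.389), Klf9 (0.37, 0.511) and Gpd2 (-0.01, 0.984) were not called. Hr rested on few counts, 16, 10 and 10 in WT and 23, 52 and 23 in CgA-KO livers. Without 1 library its log2 change ran from 0.49 to 1.59, with edgeR adjusted p-values of at least 0.0749. Of the 18 genes, 11 had a log2 change below 0 and 7 above. Without WT replicate 3 the count called on the list was 3.

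Of the 21 glucocorticoid targets, edgeR called 7 (33.3%) higher and 0 lower (0 also by DESeq2 and at an unadjusted p under 0.05), where 8.60% of all genes tested were called higher, and the median log2 change was 0.52. Tat, tyrosine aminotransferase, was at 776, 715 and 636 CPM in WT and at 782, 1390.3 and 879 CPM in CgA-KO livers and was not called (log2 change 0.52, edgeR adjusted p = 0.255). Lcn2, an iron-binding acute phase protein, rose from 11.1 ± 1.97 to 97.4 ± 48.8 CPM (log2 change 3.13, edgeR adjusted p = 0.00484). Cdkn1a, the p53-responsive cell cycle inhibitor, rose from 3.29 ± 2.14 to 34.4 ± 9.82 CPM (3.44, 0.00550), with an adjusted p of 0.0523 without WT replicate 3. Igfbp1, which fasting and insulin regulate, rose from 10.9 ± 7.07 to 95.9 ± 60.3 CPM (3.16, 0.0125). It lost the call without WT replicate 2 (adjusted p = 0.103) or 3 (0.0999), and without WT replicate 1 its log2 change was 3.84. The remaining 4 calls, named after their values were seen, were the metal-responsive Mt1 and Mt2, the kinase gene Sgk1 and the phosphatase gene Dusp1. CgA-KO replicate 2 held most of the metallothionein signal, with 645 CPM of Mt1 against 140.2 and 149 CPM in the other CgA-KO livers, and without it the log2 change of Mt1 was 0.98 instead of 2.05 and that of Mt2 1.58 instead of 2.80. Mt1 and Mt2 were not called without any 1 of the WT libraries, Dusp1 was not without WT replicate 2 or 3 or CgA-KO replicate 2, and Sgk1 was not without WT replicate 3 or CgA-KO replicate 1. Fkbp5, a close readout of GR activity also picked after its values were seen, was at 63.8, 67.9 and 74.8 CPM in WT and at 124, 122 and 73.9 CPM in CgA-KO livers and was not called (edgeR adjusted p = 0.112), but was without CgA-KO replicate 3 (0.0401). Tsc22d3 (log2 change 0.01, edgeR adjusted p = 0.986) and Per1 (-0.31, 0.655), picked in the same way, were not called and showed no rise. Per1 was uneven in WT livers, at 84.3, 26.8 and 81.9 CPM. Without 1 library the log2 change ran from -0.68 to -0.05 for Per1 and from -0.30 to 0.23 for Tsc22d3. Of the 21 genes, 19 had a log2 change above 0 and 2 below. The count called on the list was 3 without WT replicate 2 and 1 without WT replicate 3.

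Of 13 PPAR-gamma targets tested, 1 was called higher and 2 lower, with a median log2 change of -0.75. Fabp4, the fatty acid binding protein of adipocytes and macrophages, overlapped between the genotypes (log2 change 0.28, edgeR adjusted p = 0.735), and its log2 change was 1.01 (0.0798) without WT replicate 1. Lpl, which macrophages also express, rose from 19.6 ± 2.84 to 115 ± 38.3 CPM (2.56, edgeR adjusted p = 0.00296). Fabp5 and the lipid droplet protein gene Cidea fell, with log2 changes of -2.68 (edgeR adjusted p = 0.0117) and -3.06 (0.0218). Fabp5 was not called without WT replicate 2 (0.0764) or CgA-KO replicate 2 (0.0541), and Cidea was not without WT replicate 2 (0.0509) or 3 (0.0512) or CgA-KO replicate 1 (0.0876) or 2 (0.0829). The log2 change of Cidea was -2.37 without WT replicate 1 and -3.98 without CgA-KO replicate 3. The adipocyte markers Adipoq, Plin1 and Lep did not pass the filter, and Lep was at 0 in every library.

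Of 11 PPAR-delta targets tested, 1 was called, Ucp2, a mitochondrial carrier that is abundant in macrophages. It rose from 27.2 ± 13.8 to 104 ± 31.3 CPM (log2 change 1.94, edgeR adjusted p = 0.0128) and was not called without WT replicate 2 or 3 (0.0648 in both fits). Pdk4, a kinase that restrains glucose oxidation, was at 16.3, 2.55 and 3.35 CPM in WT and at 16.7, 14.2 and 31.4 CPM in CgA-KO livers, where WT replicate 1 matched the CgA-KO livers, and it was not called (log2 change 1.53, edgeR adjusted p = 0.158). Without WT replicate 1 the log2 change of Pdk4 was 2.85 and edgeR called it (adjusted p = 0.00315), as did limma-voom with all libraries (2.15, 0.0365).

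Of 12 estrogen targets tested, 3 were called higher and 1 lower. Greb1, a strongly estrogen-induced gene in reproductive tissue, had 0 counts in all 6 libraries. Sult1e1, which encodes estrogen sulfotransferase, had 10, 5 and 3 counts in WT and 128, 173 and 213 in CgA-KO livers, a log2 change of 4.30 (edgeR adjusted p = 0.00592) that was 5.36 without WT replicate 1. Cux2, a transcription factor known for higher expression in female liver, had 14, 38 and 62 counts in WT and 330, 1452 and 119 in CgA-KO livers. Its log2 change was 3.57 (edgeR adjusted p = 0.0164), and it lost the call without any 1 of the WT libraries (0.0835 to 0.129) and was 2.50 without CgA-KO replicate 2. Igfbp1 was the remaining higher gene. Lifr, the receptor of leukemia inhibitory factor, fell by 0.76 on the log2 scale (edgeR adjusted p = 0.0425), and of the fits without a library only that without WT replicate 1 called it.

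**Figure D4:**
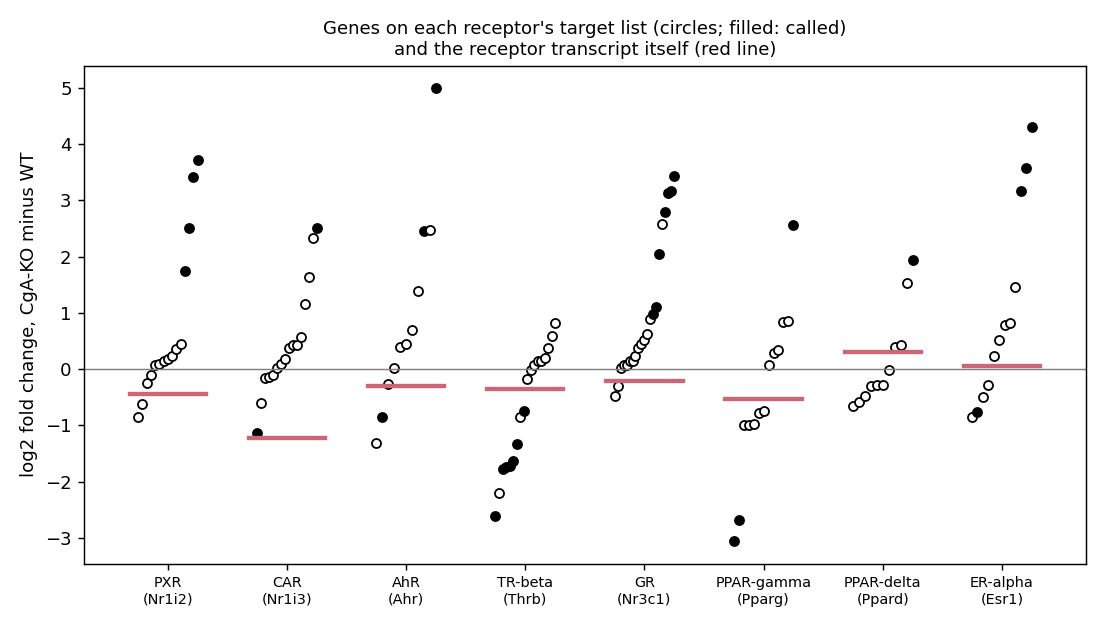
Log2 changes (CgA-KO minus WT) of the genes on the 8 target lists, with filled circles for genes called at an edgeR adjusted p-value under 0.05, open circles for the others and a red line for the receptor transcript itself. The red lines lie between -1.22 (Nr1i3) and 0.31 (Ppard), while called targets lie both above and below 0 for CAR, AhR, PPAR-gamma and ER-alpha.

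The remaining members of the nuclear receptor family, 41 genes, were compared to see where the 9 receptors stood among their relatives. Of these, 33 were tested, and 1 was called higher and 5 lower (18.2% in all). Over all genes tested 12.4% were called, 8.60% higher and 3.84% lower. The median log2 change of the 33 was -0.14 and became 0.14 with library size alone. The genotypes did not overlap for 15 of the 33, a separation seen in 33.6% of all genes tested. Nr1d2, a repressor of the clock, fell by 1.15 on the log2 scale (edgeR adjusted p = 0.0167) and lost the call without WT replicate 3 (0.0777) or CgA-KO replicate 1 (0.0744) or 2 (0.0558). Nr3c2, the mineralocorticoid receptor and nearest relative of GR, fell from 14.2 ± 2.28 to 6.61 ± 1.04 CPM (-1.10, 0.0176), and leaving out WT replicate 2 (0.0558), CgA-KO replicate 1 (0.0654) or CgA-KO replicate 3 (0.0569) ended the call. Nr2f2, an orphan receptor named after its values were seen, fell by 0.68 on the log2 scale (edgeR adjusted p = 0.0251) and was not called with library size alone, and in the fits without a library it was called only without WT replicate 2. Nr4a1, an immediate early gene, rose from 1.63 ± 0.994 to 7.75 ± 2.13 CPM (2.31, edgeR adjusted p = 0.0140). It was not called without WT replicate 3 (0.0732) or CgA-KO replicate 2 (0.0515), and its log2 change was 2.90 without WT replicate 1. Nr0b1 had 0 counts in all 6 libraries.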

How the data were processed

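The data are RNA-seq libraries from liver poly(A) RNA, 1 for each of 3 WT and 3 CgA-KO mice. The deposited values are counts, whole numbers per gene symbol that are not scaled for library size. The authors quantified reads with Salmon 1.4.0 against the GRCm38 transcriptome, per the methods and the labels, and how transcripts were combined into genes and whether strand was used are not given in the sources used here. All 6 columns were mapped to a sample by title. Rows that repeat a symbol (78) were kept apart, and none was a listed gene.

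Genes passed filterByExpr of edgeR 4.0.16 (minimum count 10, R 4.3.3), which left 13867 of 32212. TMM factors, robust quasi-likelihood fits and two-sided tests of genotype followed, with Benjamini-Hochberg adjustment across all genes tested and calls under 0.05. The standard error (SE) was taken as the absolute log2 change over the root of the F statistic, and the 95% interval uses the moderated degrees of freedom. Levels are TMM-scaled CPM, log2 CPM has a prior count of 2, and exact permutation tests are two-sided on log2 CPM. Exon lengths and coordinates are from GENCODE M21 (GRCm38), and upstream sequences from RefSeq GRCm38.p6. Chi-square per degree of freedom between replicates was 29.9 to 190, so each library counted as a sample.

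The receptors, the 12 pathway lists and the 9 marker lists were chosen with earlier results of these data known. The named genes are all 9 receptors, the first gene of each pathway list, up to 3 called genes per direction with the smallest p, and the 2 closest profiles (mean of at least 5 CPM) to a called receptor. Genes picked after their values were seen are marked so. Alternatives were DESeq2 1.42.0, limma-voom (limma 3.58.1), other scalings and filters, a replicate block, a threshold of 0.01 and fits without 1 library. The main edgeR fit and the DESeq2 and limma-voom fits were tested on simulated data, and the other alternatives were not. Replicates are separate mice per the methods, and the labels give only replicate numbers. Raw reads were not analysed here, and values of some genes counted in the lists are not reported here.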

Additional observations from a re-analysis of the deposited data

How the results depend on the processing

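The count of receptors called was 1 in the fits with DESeq2, limma-voom, a total of at least 1 count and TMM factors computed without markers of other cell types. It was 0 with library size alone, upper-quartile factors, at least 10 counts in every library, the replicate block and a threshold of 0.01, and between 0 and 1 with each library left out. The same settings end the call of Nr1i3, whose log2 fold change was -0.99 with library size alone (adjusted p = 0.137), -1.17 with upper-quartile factors (0.0624), -1.19 with at least 10 counts in every library (0.0559), -1.16 with the replicate block (0.0833) and -1.22 at the threshold of 0.01 (0.0496), and it ran from -1.49 to -0.99 without 1 library. Over its 14 other fits Nr1i3 was lower in all 14 and called in 5. The direction turned for Rxra (0.05) and Nr3c1 (0.06) with library size alone and for Esr1 (-0.09) without WT replicate 3, where fits without 1 library ran from -0.09 to 0.22. With library size alone the calls of Alas1, Acaca, Ugt1a6a, Lifr, Nr2f2, Nr3c2, Fkbp4, Akr1c6 and Cyp7b1 also ended. The 188 other pathway genes tested gave 39 calls, 60 with DESeq2, 14 at the threshold of 0.01 and 15 to 38 without 1 library. The 7 thyroid hormone targets called became 3 at 0.01 and ranged from 3 to 7 without 1 library. The 7 glucocorticoid targets became 4 with a total of at least 1 count, 4 with the replicate block, 2 at 0.01 and 1 to 8 without 1 library. With the longest transcript as length, 1 pair of neighbours in the WT order overlapped in place of 3. Same-numbered libraries did not deviate together (correlations of 0.199, 0.013 and -0.066 over genes), so the numbers were not treated as pairs. The cause of these shifts was not tested. The receptors had at least 87 counts in every library, and the effect of depth on their intervals was not tested. The spread between 3 livers is wide for Nr1i3 in WT.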

Other observations

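Genes around the receptors were also listed. Of 21 coactivators and corepressors, 0 were called by edgeR and 0 by DESeq2, 2 had an unadjusted p under 0.05 by edgeR, and the median log2 change was 0.07. Ncoa1, the first of the list, overlapped between the genotypes (log2 change 0.12, edgeR adjusted p = 0.731). Of 15 chaperones and AhR partners tested, 1 was called: Fkbp4, a cochaperone of steroid receptors, fell from 81.4 ± 1.72 to 47.7 ± 4.73 CPM (SD, n = 3), a log2 change of -0.77 (edgeR adjusted p = 0.0212), which was not called without WT replicate 3 (0.0948) or CgA-KO replicate 1 (0.101) or 3 (0.0678). Hsp90aa1 was at 261, 129 and 93.4 CPM in WT and 82.9, 95.4 and 125 CPM in CgA-KO livers and was not called (edgeR adjusted p = 0.259).

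Of 19 genes of hormone supply and clearance tested, 1 was called higher and 3 lower, with 16 of the 19 below 0 and a median log2 change of -0.64. The higher gene was Sult1e1, described above. Slco1a1, an uptake transporter of steroid conjugates and thyroid hormone known for higher expression in male liver, fell from 206 ± 70.7 to 18.6 ± 10.5 CPM, a log2 change of -3.47 (edgeR adjusted p = 0.00583), with adjusted p-values of at most 0.0473 without 1 library. Akr1c6, a hydroxysteroid dehydrogenase with close paralogs, had a log2 change of -1.22 (edgeR adjusted p = 0.0480), and Cyp7b1, an oxysterol hydroxylase, one of -0.90 (0.0498). Both lie just under the threshold, and left-out libraries gave adjusted p-values of up to 0.151 and 0.172. Serpina7, thyroxine-binding globulin, and Serpina6, corticosteroid-binding globulin, were picked after their values were seen and were not called (edgeR adjusted p = 0.0517 and 0.351). DESeq2 called Serpina7 (adjusted p = 0.00372), as did edgeR without WT replicate 3 (0.0394) or CgA-KO replicate 3 (0.0431).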
